A study of Mus musculus with 12 samples.

Results

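Tetraspanins are membrane proteins that cross the lipid bilayer several times and gather integrins, proteases and adhesion molecules into small surface patches. Several of them, above all CD9, CD63 and CD81, are enriched on extracellular vesicles (EVs), the membrane particles that cells release, and antibodies to them are the usual means of capturing and counting vesicles. In squamous epithelium CD9, CD81 and CD151 sit with integrins at the cell surface, while CD63 cycles through late endosomes, whose inner vesicles are released when the endosome fuses with the plasma membrane.

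The genes described are the 29 protein-coding genes of the deposited table named Tspan with a number, or named Cd9, Cd37, Cd53, Cd63, Cd81, Cd82, Cd151, Upk1a or Upk1b. The table held 55421 Ensembl genes, of which 21897 were protein-coding. The names alone chose the members, and 25 of the 29 passed the low-count filter and were tested. The 4 that were not tested were Cd53, Tspan10, Tspan11 and Tspan32. They fall into 5 vesicle and plasma-membrane tetraspanins (Cd9, Cd63, Cd81, Cd82, Cd151), 6 TspanC8 genes (Tspan5, Tspan10, Tspan14, Tspan15, Tspan17, Tspan33), 3 leukocyte genes (Cd37, Cd53, Tspan32), 2 uroplakins and 13 other numbered genes.

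The RNA came from MOC2, a mouse oral squamous cell carcinoma line, grown in culture. The titles name a derivative MOC2-25 as EV-Proficient and a derivative MOC2-27 as EV-Deficient. In the second, vesicle release was blocked by genetic means, through a gene that no label gives. Each EV status is thus represented by 1 derivative, so that a difference between clones and an effect of the block cannot be told apart. The 4 groups of 3 libraries each were EV-proficient with DMSO, EV-deficient with DMSO, EV-proficient with paclitaxel and EV-deficient with paclitaxel. Paclitaxel, which stabilises microtubules, was given at 600 nM for 48 h to induce senescence, and all cells grew in the same hormone-supplemented medium. Nothing states that the 3 libraries of a group came from separate cultures, so p-values measure only the spread between these libraries, which may be technical.

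Each library held between 23263472 and 62955757 counts, and 18108 genes were tested. Levels are normalised counts (CPM, on scaled library sizes), on which 3 counts, the limit that a count of 0 allows, came to between 0.0492 and 0.121 CPM. Such limits cover counting error only. Listed squamous epithelial markers summed to between 3080 and 6180 CPM, and all 9 were found. Of the basal-cell markers, 2 were close to 0 (Krt5 at most 0.171 CPM, Trp63 at most 0.18 CPM), while Krt14 measured between 77.4 and 730 CPM. Whether cell numbers of a type or RNA per cell changed cannot be told apart in such bulk libraries.

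The EV labels did not carry the same differences under both treatments. Of the 2834 genes called between the EV labels under both DMSO and paclitaxel, 112 (3.95%) differed in the same direction, and the log2 differences correlated at -0.90 across those genes. Over the 25 tested tetraspanin genes the correlation was -0.58 and 8 of 25 (32%) kept their sign, a share close to that of all 18108 tested genes, of which 5955 (32.9%) kept theirs at a correlation of -0.40. The added row named dngfr moved with the same crossing: it measured 5.73 to 12.2 (counts per scaled library size, as CPM) in the libraries labelled EV-proficient DMSO and 1.89 to 2.54 in those labelled EV-deficient DMSO, against 2.47 to 3.76 in those labelled EV-proficient paclitaxel and 9.63 to 12.4 in those labelled EV-deficient paclitaxel. Whether the labels of 1 treatment are exchanged was not tested, no library was moved to another group, and groups below are given as labelled. The mean of the drug effects under both labels, called the averaged paclitaxel effect here, has the same value whichever EV label either set of 3 paclitaxel libraries carries, because both labels weigh equally in it. It therefore comes first.

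Promoter sequences are shown for 4 genes that rose on average under paclitaxel and differ in base composition. Each is the 250 bases before a transcription start in RefSeq's annotation of GRCm38.p6, written 5′ to 3′ on the strand of the gene, with every GGGCGG, the GC box bound by Sp-family factors, in capitals. The windows are Tspan1 at chr4:116167599-116167848 (minus strand), Tspan8 at chr10:115817034-115817283 (plus strand), Tspan17 at chr13:54789155-54789404 (plus strand) and Cd81 at chr7:143052500-143052749 (plus strand). The last bases of the Tspan1, Tspan17 and Cd81 windows run into annotated exons of the gene, by 3, 28 and 11 bases. The Tspan8 window lies inside the annotated gene, which starts at chr10:115816832. It holds 13 bases of the gene's exons, whose place in the window was not recorded.
Tspan1: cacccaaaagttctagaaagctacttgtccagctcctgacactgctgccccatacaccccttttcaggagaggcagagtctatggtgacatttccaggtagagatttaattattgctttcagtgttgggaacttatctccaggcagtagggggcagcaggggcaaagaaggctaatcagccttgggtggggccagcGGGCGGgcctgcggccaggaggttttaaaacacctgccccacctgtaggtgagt
Tspan8: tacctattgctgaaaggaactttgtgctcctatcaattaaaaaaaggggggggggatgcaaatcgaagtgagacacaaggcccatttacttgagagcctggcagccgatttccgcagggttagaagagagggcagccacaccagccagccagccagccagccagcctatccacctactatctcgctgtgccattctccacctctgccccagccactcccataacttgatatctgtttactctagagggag
Tspan17: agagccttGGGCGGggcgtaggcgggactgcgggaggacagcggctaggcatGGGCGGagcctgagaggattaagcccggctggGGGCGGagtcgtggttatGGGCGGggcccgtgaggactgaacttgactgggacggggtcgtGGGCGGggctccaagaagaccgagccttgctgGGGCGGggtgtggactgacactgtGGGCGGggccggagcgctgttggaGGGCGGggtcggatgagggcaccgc
Cd81: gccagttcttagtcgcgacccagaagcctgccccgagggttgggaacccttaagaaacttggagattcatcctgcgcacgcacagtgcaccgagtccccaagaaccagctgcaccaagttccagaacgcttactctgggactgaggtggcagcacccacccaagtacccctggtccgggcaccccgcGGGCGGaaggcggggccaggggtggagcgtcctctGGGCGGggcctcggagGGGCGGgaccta
The Tspan17 window held 8 GC boxes and 22 CpG dinucleotides at 70.8% G and C. The Cd81 window held 3 boxes and 16 CpG at 65.6%, and the Tspan1 window 1 box and 3 CpG at 53.6%. The Tspan8 window held 0 boxes and 4 CpG at 52.4%. RefSeq windows were matched for 27 of the 29 members (37 windows), and 43.2% of them held GGGCGG on either strand, against 32.7% of all 32851 windows. The other letters searched on both strands were TGANTCA (AP-1), in 2.7% of member windows and 6.75% of all, CACGTG (E-box), in 5.41% and 6.02%, and TATAAA (bound by TBP), in 2.7% and 12.4%. An interferon-type repeat was searched too, and was in 0% of member windows and 2.98% of all. These are descriptions of letters in the windows, and no motif searched contains another.

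Cd9 was the most abundant tetraspanin transcript per length in all 4 groups, and Cd63 came next. Cd9 averaged from 125 CPM per kilobase of exon in the EV-proficient DMSO libraries to 165 in the EV-proficient paclitaxel libraries. Cd63 averaged between 67.8 and 80.2 CPM per kilobase. In both DMSO groups Tspan14, Cd151 and Tspan4 followed, at 57.9, 49.2 and 31 CPM per kilobase in the EV-proficient group. Tspan4 and the sixth gene, Tspan8 at 26.2, lay within their SDs of each other there. Under paclitaxel Tspan8 took the fourth place in the EV-proficient label at 54 ± 1.98 CPM per kilobase (SD, n = 3), within the SDs of Tspan14 at 54.4 ± 1.71. In the EV-deficient label it took the third place at 71.8 ± 8.92, within the SDs of Cd63 at 72.4 ± 4.16. Dividing by the longest transcript in place of the exon union kept the same 5 leading genes in both DMSO groups and 4 of the 5 under paclitaxel.

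At the other end of the order stood the genes tied to blood cells and a few numbered ones. Tspan10 was detected in 1 of 12 libraries, with 5 counts. Tspan11 reached at most 9 counts, Tspan32 at most 7 and Cd53 at most 17 in any library. Summed over all 29 members, the transcripts came to 1427 ± 61.2 CPM in the EV-proficient DMSO libraries and 1422 ± 34.5 in the EV-deficient DMSO libraries (SD, n = 3 each). Under paclitaxel the sum was 1593 ± 16.6 and 1535 ± 66.3 CPM in the same order of labels. Cd9 and Cd63 together made up 38.6%, 39.7%, 36.9% and 37.8% of the sum in the 4 groups.

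**Figure D1:**
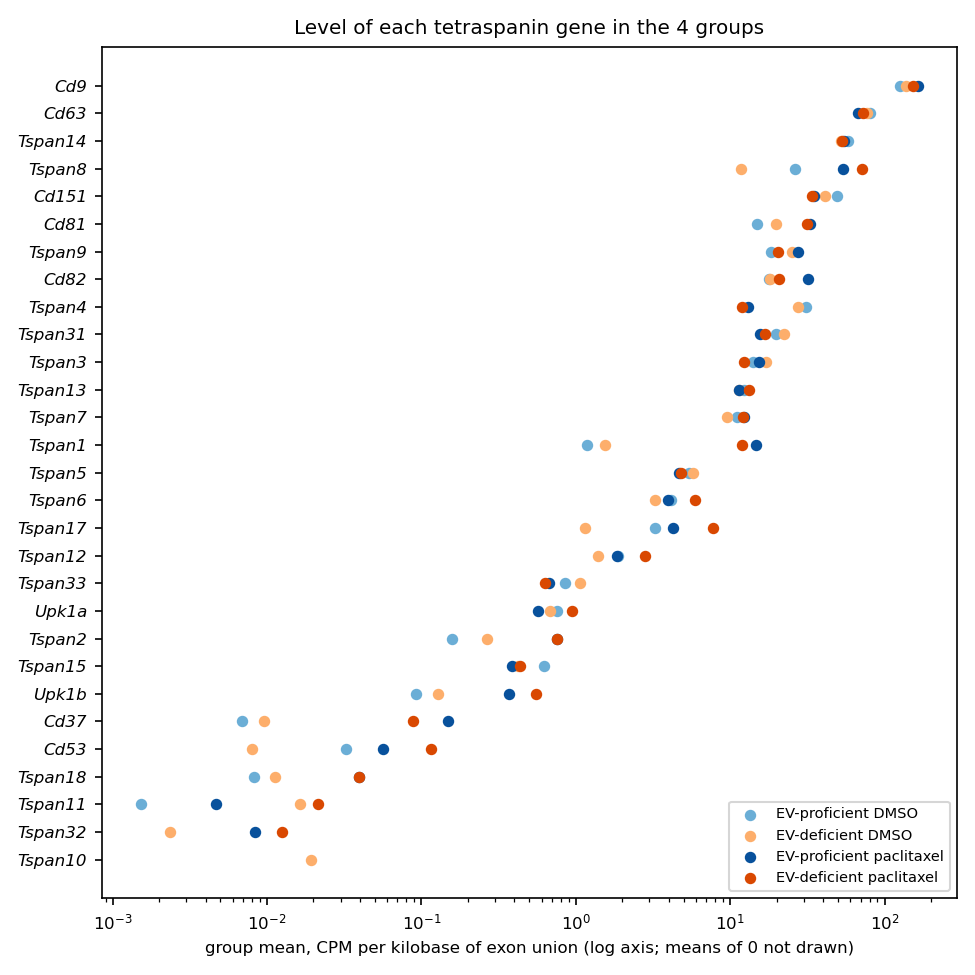
Mean level of the 29 tetraspanin genes in each of the 4 groups (3 libraries each), in CPM per kilobase of exon union on a log axis, ordered from the highest; means of 0 are not drawn. Cd9 leads in every group (125 to 165), and the points of Tspan8, Tspan1, Tspan17 and Tspan2 spread widely between groups.

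Under paclitaxel, averaged over both EV labels, 20 of 23 tested members passed an adjusted p of 0.05, 12 higher and 8 lower. Cd37 and Tspan18 are left out of these counts, since they passed the low-count filter only through paclitaxel libraries and so had to differ (with them the counts were 22 of 25, 14 higher). The test was edgeR's quasi-likelihood test with Benjamini-Hochberg adjustment over all tested genes. In that comparison 68.4% of all tested genes were called, 37.1% higher and 31.3% lower, so that most tested genes were called. No gene was left out of the counts, shares and medians over all tested genes. Members and all genes were thus not selected alike. The median log2 change was 0.13 over the members and 0.07 over all tested genes. Within the labels, 14 of 23 members were called in the EV-proficient libraries (8 higher, 6 lower; 58.2% of all genes, 31.1% higher and 27.1% lower), with a median of -0.01 against 0.05. In the EV-deficient libraries 19 of 23 were called (12 higher, 7 lower; 62.9% of all genes, 32.4% higher and 30.5% lower), with a median of 0.20 against 0.07. Of the 12 members called under both labels, 11 moved the same way, and of all genes called under both, 6783 of 8066 (84.1%) did. The 7 that rose under both were Cd9, Cd81, Cd82, Tspan1, Tspan2, Tspan8 and Upk1b, and the 4 that fell under both were Cd151, Tspan4, Tspan5 and Tspan31. Tspan9 was the exception. These counts by label, and every drug effect given for 1 label, rest on the labels. The sum of the squamous epithelial list moved with the drug too. It was 5070 to 5500 CPM in EV-proficient DMSO and 5670 to 6180 in EV-deficient DMSO, and 3510 to 3840 and 3080 to 3200 CPM under paclitaxel. That sum does not stand for each gene of the list. Krt8 reached 2324 CPM and Krt18 1561 CPM, Krt5 and Trp63 were close to 0, and Epcam rose on average (below). All 5 listed fibroblast markers were detected in at least some libraries. Their sum was 1.34 to 2.52 and 2.52 to 3.27 CPM with DMSO. With the drug it was 5.26 to 6.01 and 6.6 to 8.28 CPM, in the same order of labels. Pdgfra alone measured between 0.957 and 4.82 CPM, and Lum reached at most 5 counts. The 4 endothelial markers summed to 2.48 to 2.56 and 1.94 to 2.41 CPM with DMSO, and to 2.75 to 3.48 and 3.8 to 4.76 CPM with the drug. The part of these lists in the members' changes was not tested.

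**Figure D2:**
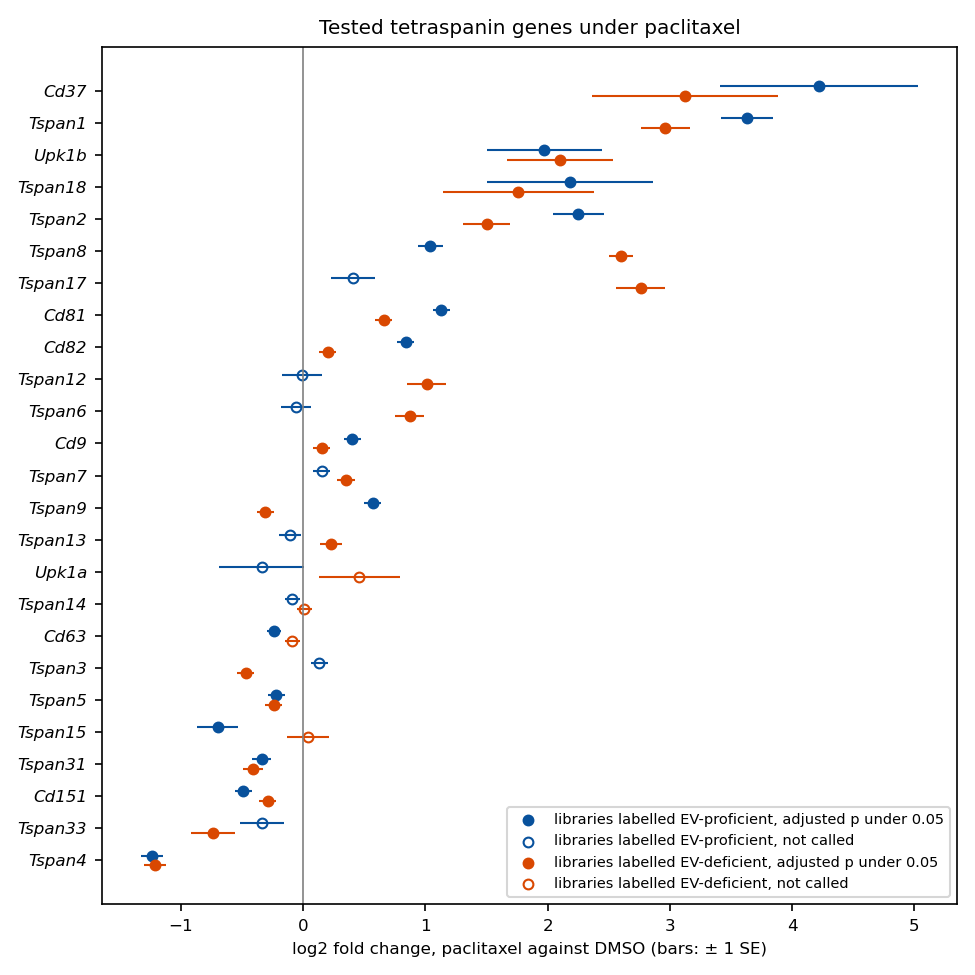
Log2 fold change of the 25 tested tetraspanin genes, paclitaxel against DMSO, in the libraries labelled EV-proficient (blue) and EV-deficient (orange); bars are 1 SE, and filled points passed an adjusted p of 0.05. Cd37 and Tspan18 passed the low-count filter only through paclitaxel libraries. Tspan4 lies at the low end in both labels (-1.24 and -1.21), and Tspan1 near the high end (3.63 and 2.96).

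The 3 tetraspanins most used to detect vesicles did not move together. Cd81 rose, Cd9 rose less, and Cd63 was slightly lower. Cd81, an integrin-associated surface tetraspanin and common vesicle marker, lies at chr7:143052739-143067934 on the plus strand. It measured 41.9, 42.7 and 45.2 CPM in the EV-proficient DMSO libraries and 56.3, 56 and 59.2 in the EV-deficient DMSO libraries. Under paclitaxel it measured 93.9, 89.4 and 101 CPM in the EV-proficient label and 95.2, 91.4 and 83.9 in the EV-deficient label. All 6 paclitaxel libraries thus lay above all 6 DMSO libraries. The averaged log2 change was 0.89 ± 0.05 (SE), a 1.86-fold rise (adjusted p 4.7e-13). By label it was 1.13 ± 0.07 and 0.66 ± 0.07.

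Cd9, an integrin partner whose protein is also needed on the egg for sperm fusion, lies at chr6:125460266-125494791 on the minus strand. Its DMSO libraries measured 253, 267 and 248 CPM in the EV-proficient label and 304, 273 and 267 in the EV-deficient label. With the drug the values were 346, 318 and 350 CPM, and 317, 332 and 290 CPM, in the same order of labels. The drug and DMSO libraries were apart in the EV-proficient label and overlapped in the EV-deficient label, where 1 DMSO library at 304 exceeded 1 drug library at 290. Averaged over both labels, the log2 change was 0.28 ± 0.05 (adjusted p 1.9e-05), with 0.40 ± 0.07 in the EV-proficient label. In the EV-deficient label it was 0.15 ± 0.07 (adjusted p 0.049), and this call was lost in 9 of 20 alternative fits, with values from 0.11 to 0.34 over all 20. Among those 9 were the fits without EV-deficient DMSO replicate 2 or 3, without EV-deficient paclitaxel replicate 1 or 2, and without any single EV-proficient DMSO replicate.

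Cd63, the tetraspanin of late endosomes and their inner vesicles, lies at chr10:128900989-128912822 on the plus strand. It measured 291, 316 and 279 CPM in the EV-proficient DMSO libraries and 292, 284 and 275 CPM in the EV-deficient DMSO libraries. The paclitaxel libraries measured 240, 251 and 258 CPM, and 279, 250 and 271 CPM. Its averaged log2 change was -0.17 ± 0.04 (adjusted p 0.002), or 1.12-fold lower. The change passed in the EV-proficient label (-0.24 ± 0.06) and not in the EV-deficient label (-0.09 ± 0.06, adjusted p 0.21), where the groups overlapped. The difference between those effects, 0.15 ± 0.09, did not pass either (adjusted p 0.18), though it did without EV-deficient paclitaxel replicate 2 (0.23), with a filter of 1 CPM in 3 libraries (0.20) and under upper-quartile scaling (0.27). Upper-quartile scaling, which moved the median of all tested genes by 0.12 in the averaged comparison, left Cd63 at -0.04 and not called.

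Cd82, known as a metastasis suppressor, lies at chr2:93419111-93463140 on the minus strand. It measured 54.9, 55 and 50.8 CPM in the EV-proficient DMSO libraries, and 54.2, 55.6 and 53 CPM in the EV-deficient DMSO libraries. Paclitaxel libraries of the EV-proficient label measured 95.4, 99.5 and 92.4 CPM, and those of the EV-deficient label 63.2, 67.4 and 57.2 CPM. Both drug groups lay above both DMSO groups, and they did not overlap each other. The log2 change was 0.84 ± 0.07 in the EV-proficient label and 0.20 ± 0.07 in the EV-deficient label, and the averaged change was 0.52 ± 0.05 (adjusted p 3.2e-09). The smaller value, at an adjusted p of 0.012, lost its call when no low-count filter was used (0.17).

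Cd151 went the other way. Its protein holds the laminin-binding integrins in place, among them the integrin of hemidesmosomes, the junctions that tie epithelium to its basement membrane. The gene lies at chr7:141467392-141471473 on the plus strand. It measured 128, 149 and 128 CPM in the EV-proficient DMSO libraries, 114, 114 and 110 in the EV-deficient DMSO libraries, 91.2, 101 and 96.3 in the EV-proficient paclitaxel libraries and 89.6, 90.4 and 97.2 in the EV-deficient paclitaxel libraries. Every drug library lay below every DMSO library. On average over the labels its log2 change was -0.39 ± 0.05 (adjusted p 2.5e-07), with -0.49 ± 0.07 and -0.29 ± 0.07 by label; upper-quartile scaling left -0.10 and no call in the EV-deficient label. Over the 5 vesicle and plasma-membrane genes, 3 rose and 2 fell in the averaged comparison, in which 68.4% of all tested genes were called, with a median of 0.28.

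**Figure D3:**
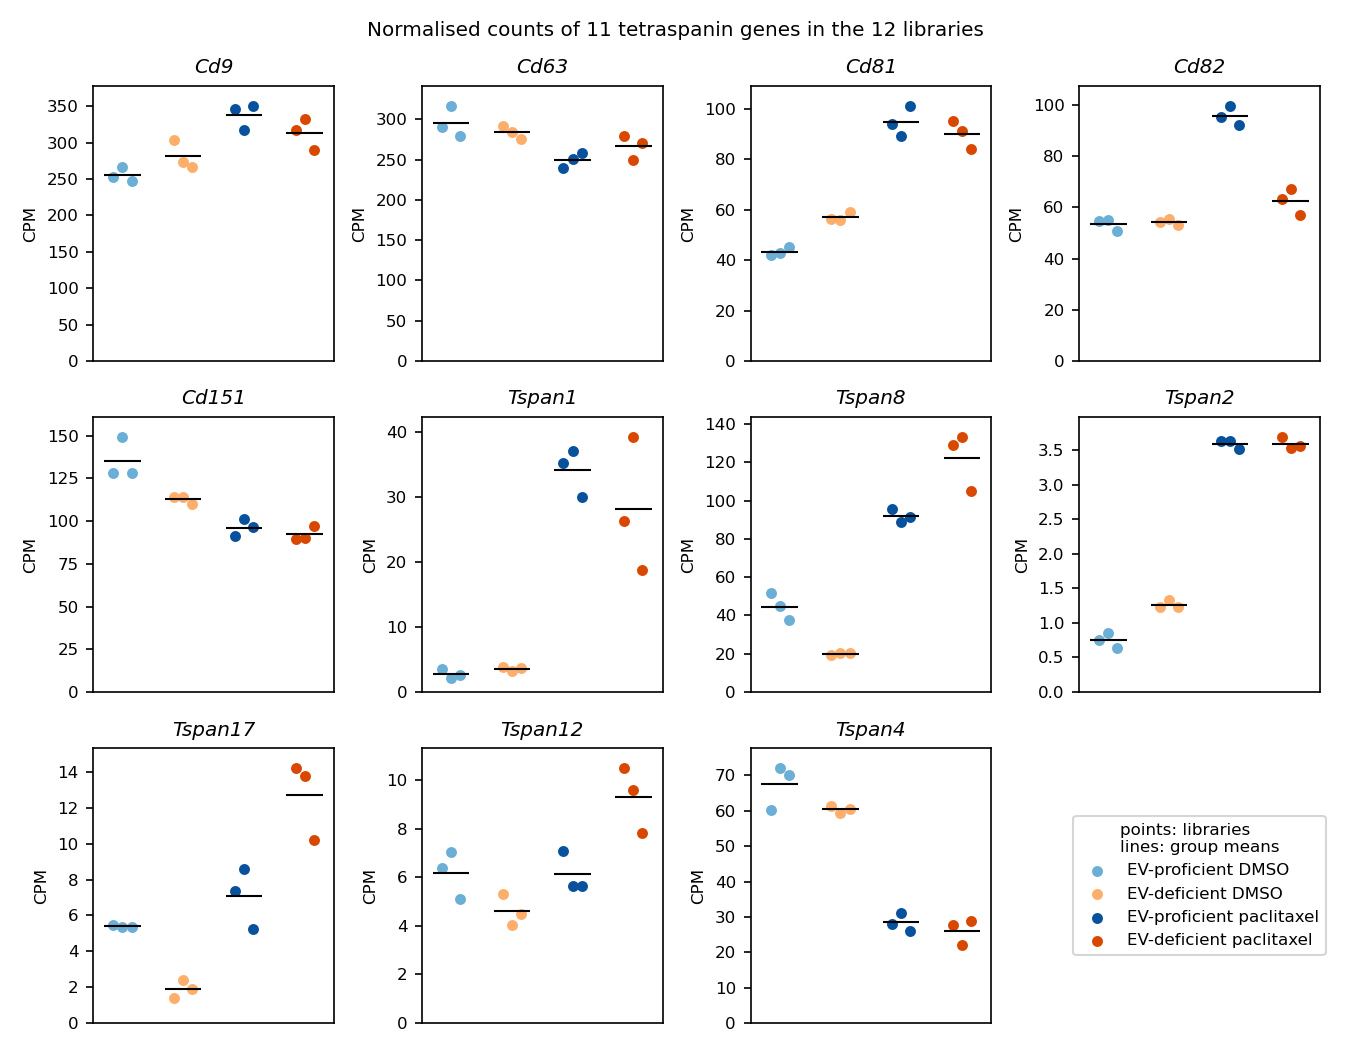
Normalised counts (CPM, linear axes from 0) of 11 tetraspanin genes in the 12 libraries, 3 points per group, with a line at each group mean. Cd81, Tspan1, Tspan8 and Tspan2 are higher in all 6 paclitaxel libraries than in any DMSO library, and Tspan4 and Cd151 are lower in all 6.

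The largest rises among members above 1 CPM were in Tspan1, Tspan2, Tspan8 and Tspan17. Tspan1, an epithelial tetraspanin, lies at chr4:116161869-116167601 on the minus strand. It measured 3.48, 2.11 and 2.66 CPM in the EV-proficient DMSO libraries and 3.78, 3.29 and 3.66 in the EV-deficient DMSO libraries. Under paclitaxel it measured 35.2, 37 and 29.9 CPM, and 26.2, 39.1 and 18.8 CPM. Even the lowest drug library, at 18.8 CPM, was well above the highest DMSO library at 3.78. The averaged log2 change was 3.30 ± 0.15, a 9.83-fold rise (adjusted p 3.1e-14), and the change by label was 3.63 ± 0.21 and 2.96 ± 0.20. The difference of those did not pass the threshold (-0.67 ± 0.29, adjusted p 0.072). It was called in 4 of 19 alternatives, among them those without EV-deficient paclitaxel replicate 2 (-0.95) and without EV-proficient DMSO replicate 1 (-0.88).

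Tspan8, a surface tetraspanin of digestive epithelia found on vesicles from carcinoma cells, lies at chr10:115816832-115849893 on the plus strand. In the DMSO libraries it measured 51.5, 44.9 and 37.4 CPM under the EV-proficient label and 19.4, 20.6 and 20.3 under the EV-deficient label. In the paclitaxel libraries it measured 95.4, 88.7 and 91.5 CPM, and 129, 133 and 105 CPM. The 4 groups did not overlap at all, and the label with the lower DMSO level had the higher level under the drug. On average over the labels its log2 change was 1.82 ± 0.07, a 3.53-fold rise (adjusted p 3.6e-15). It was 1.04 ± 0.10 in the EV-proficient label and 2.60 ± 0.10 in the EV-deficient label.

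Tspan2, known from oligodendrocytes, lies at chr3:102734529-102801513 on the plus strand. It measured 0.755, 0.862 and 0.644 CPM in the EV-proficient DMSO libraries, 1.23, 1.33 and 1.23 in the EV-deficient DMSO libraries, 3.64, 3.64 and 3.52 in the EV-proficient paclitaxel libraries and 3.69, 3.53 and 3.56 in the EV-deficient paclitaxel libraries. The drug libraries of both labels lay between 3.52 and 3.69 CPM, above all DMSO libraries, and the DMSO libraries of the labels did not overlap. Averaged over both labels, the log2 change was 1.88 ± 0.14 (adjusted p 1.6e-10).

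Tspan4, whose protein builds migrasomes, the vesicles left on retraction fibres by moving cells, had the largest fall. The gene lies at chr7:141475240-141493427 on the plus strand, 3.766 kb beyond Cd151, with 1 protein-coding gene between them. It measured 60.3, 72 and 70.2 CPM in the EV-proficient DMSO libraries and 61.3, 59.3 and 60.6 in the EV-deficient DMSO libraries. With paclitaxel it measured 28.1, 31.2 and 26 CPM, and 27.6, 22 and 28.8 CPM. No drug library came near the DMSO range, and the EV labels overlapped under both treatments. The averaged log2 change was -1.22 ± 0.07, or 2.34-fold lower (adjusted p 5.8e-13), and by label it was -1.24 ± 0.09 and -1.21 ± 0.09. Chid1, whose exons overlap those of Tspan4 on the opposite strand, changed by -0.29 ± 0.05.

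Tspan12, the co-receptor that lets Norrin act on the receptor Frizzled-4, lies at chr6:21771395-21852515 on the minus strand. It measured 6.38, 7.06 and 5.12 CPM in the EV-proficient DMSO libraries and 5.32, 4.05 and 4.5 in the EV-deficient DMSO libraries, then 7.09, 5.66 and 5.66, and 10.5, 9.6 and 7.83, under paclitaxel. Only the EV-deficient paclitaxel libraries stood above the others. The log2 change was 1.01 ± 0.16 in that label and -0.01 ± 0.16 in the EV-proficient label, where it was not called. The averaged change was 0.50 ± 0.11 (adjusted p 0.00052). Fzd4, the gene of its partner receptor, went from 1.74 ± 0.369 to 7.27 ± 0.896 CPM in the EV-proficient label and from 3.18 ± 0.294 to 5.06 ± 1.27 CPM in the EV-deficient label (SD, n = 3 each), an averaged log2 change of 1.36 ± 0.14 (adjusted p 2.3e-08).

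Leaving out Tspan18, 7 of the 11 other numbered genes tested rose and 3 fell on average, against 68.4% of all tested genes called. Tspan18 had at most 6 counts per DMSO library and at most 20 per drug library, and is given without a test because only the drug libraries brought it past the filter. Tspan6 rose by 0.40 ± 0.09 on average, made up of 0.87 ± 0.12 in the EV-deficient label and -0.06 ± 0.12, not called, in the EV-proficient label. Tspan7, known from neurons, rose by 0.25 ± 0.05. Tspan9, a platelet tetraspanin, rose by 0.13 ± 0.05 on average, the mean of a rise and a smaller fall under the labels. Tspan31, which shares exonic bases with the opposite-strand gene Cdk4, fell by 0.38 ± 0.06, and Cdk4 itself fell by 0.75 ± 0.05. Tspan3 fell by 0.17 ± 0.05 on average, with -0.47 ± 0.07 in the EV-deficient label and 0.13 ± 0.07, not called, in the EV-proficient label. Upper-quartile scaling left its average at -0.05 and not called. Tspan13 was not called on average (0.06 ± 0.07), and its call in the EV-deficient label (0.23 ± 0.09) was lost in 5 of 20 alternatives.

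TspanC8 tetraspanins bind the sheddase ADAM10, a protease that clips adhesion molecules, growth factors and Notch receptors from the cell surface, and they steer it to different places and substrates. Of the 5 tested, 1 rose and 3 fell in the averaged comparison (median -0.23), where 68.4% of all tested genes were called. Tspan17, at chr13:54789377-54796776 on the plus strand, measured 5.46, 5.36 and 5.33 CPM in the EV-proficient DMSO libraries and 1.41, 2.38 and 1.89 in the EV-deficient DMSO libraries. Under the drug it measured 7.37, 8.6 and 5.22 CPM, and 14.2, 13.8 and 10.2 CPM. The EV-deficient label held both the lowest and the highest group. Averaged over both labels, the log2 change was 1.58 ± 0.13 (adjusted p 8.5e-10), made up of 2.76 ± 0.20 in the EV-deficient label and 0.41 ± 0.18 in the EV-proficient label, where it was not called (adjusted p 0.062). That second value was called in 5 of 20 alternatives, among them those without EV-proficient paclitaxel replicate 3 (0.58) and without EV-deficient paclitaxel replicate 3 (0.41).

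Tspan14 was the most abundant TspanC8 transcript, at 52.3 to 57.9 CPM per kilobase in the 4 group means, and was not called in any of the 6 comparisons. Between the EV labels under DMSO its difference of -0.15 ± 0.06 was called in 7 of 20 alternatives. Tspan5 fell by 0.23 ± 0.05 on the log2 scale, to -0.11 and no call under upper-quartile scaling. Without EV-proficient DMSO replicate 2 its call in the EV-proficient label was lost, at -0.19. Tspan33, known from red cell precursors, fell by 0.54 ± 0.13. Tspan15, whose protein directs ADAM10 to N-cadherin, fell by 0.33 ± 0.12 on average, with -0.70 ± 0.17 in the EV-proficient label and 0.04 ± 0.17, not called, in the EV-deficient label. The averaged call was lost in 4 of 19 alternatives, among them those without EV-deficient paclitaxel replicate 1 (-0.29) and without EV-proficient DMSO replicate 3 (-0.28). Adam10 itself rose by 0.26 ± 0.05 (adjusted p 0.00012), from group means of 109 ± 4.69 and 103 ± 1.33 CPM to 129 ± 13.6 and 126 ± 7.63 CPM (SD, n = 3 each).

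Of 17 known ADAM10 substrates tested, 7 rose and 7 fell in the averaged comparison, with a median of 0.20 (37.1% of all tested genes rose and 31.3% fell). By label, 6 rose and 7 fell in the EV-proficient libraries (median 0.02), where 31.1% of all genes rose and 27.1% fell (median 0.05). In the EV-deficient libraries 11 rose and 3 fell (median 0.46), against 32.4% and 30.5% of all genes (median 0.07). The 6 with the largest averaged changes were Notch3 (1.92 ± 0.17), the membrane-bound chemokine Cx3cl1 (1.67 ± 0.04), Alcam (1.26 ± 0.07), betacellulin Btc (0.74 ± 0.12), N-cadherin Cdh2 (-0.58 ± 0.07) and Met (-0.45 ± 0.04). Alcam changed by 0.23 ± 0.10 in the EV-proficient label and 2.28 ± 0.10 in the EV-deficient label, and Notch3 by 3.20 ± 0.26 and 0.64 ± 0.23. Cdh2 moved from 226 ± 8.63 to 24.4 ± 1.58 CPM in the EV-proficient label and from 39.9 ± 2.21 to 166 ± 35 CPM in the EV-deficient label. As labelled, its average is the mean of large opposite changes. Substrate proteins and their cleavage were not measured.

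Among 24 proteins known to associate with tetraspanins, 9 rose and 13 fell on average, with a median of -0.13, against 37.1% higher and 31.3% lower among all tested genes. The largest averaged changes of the list were those of Tfrc (-1.39 ± 0.08) and Fzd4 (1.36 ± 0.14, above), whose sizes differ by less than their errors. Tfrc, the transferrin receptor carried on vesicles, went from 618 ± 48.6 to 230 ± 15.2 CPM in the EV-proficient label and from 596 ± 27.2 to 232 ± 53.4 in the EV-deficient label (SD, n = 3 each). Of the chains of laminin-binding integrins in the list, Itga3 changed by -0.70 ± 0.04, Itgb4 by -0.54 ± 0.05 and Itgb1 by -0.23 ± 0.04, the last made up of -0.55 ± 0.06 in the EV-proficient label and 0.09 ± 0.06, not called, in the EV-deficient label. Itga6 was not called on average (0.02 ± 0.05, adjusted p 0.81), with 0.20 ± 0.07 in the EV-proficient label and -0.17 ± 0.07 in the EV-deficient label. Epcam changed by 0.64 ± 0.06 on average, made up of 1.00 ± 0.09 and 0.29 ± 0.09 in the same order of labels. Slc3a2 changed by -0.47 ± 0.06 and -0.64 ± 0.06. Sdc1 was not called in the EV-proficient label (-0.01 ± 0.06) and changed by -1.11 ± 0.06 in the EV-deficient label.

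The leukocyte and urothelial members were rare. Cd37, a tetraspanin of B cells, had 2, 1 and 0 counts in the EV-proficient DMSO libraries and 2, 1 and 2 in the EV-deficient DMSO libraries. It had 33, 22 and 13 counts in the EV-proficient paclitaxel libraries and 8, 18 and 24 in the EV-deficient paclitaxel libraries. Both DMSO groups were at or under 3 counts per library. Mean Cd37 levels under paclitaxel were 0.522 CPM in the EV-proficient label and 0.311 CPM in the EV-deficient label. They were 6.72 and 5.12 times the mean CPM of 3 counts in the DMSO libraries of the same label. These ratios are no lower bounds, since that limit is set for a count of 0 and some DMSO libraries had 1 or 2 counts. The lowest drug library, at 0.149 CPM, stood nearer to the EV-deficient DMSO limit of 0.0606 CPM. No test is given, since Cd37 passed the low-count filter only through paclitaxel libraries. Exons of Cd37 overlap those of Tead2 on the opposite strand, and Tead2, at group means of 33.2 to 70.5 CPM, rose by 0.78 ± 0.05. Of the 9 listed leukocyte markers (10 table rows), Cd3e was at or under 3 counts in all 12 libraries, and Ptprc reached at most 1.54 CPM. Their summed level was 1.63 to 2.31 CPM in EV-proficient DMSO, 13.7 to 14 in EV-deficient DMSO, 13.3 to 15.3 in EV-proficient paclitaxel and 6.74 to 8.61 in EV-deficient paclitaxel. Csf1r alone measured between 0.755 and 12.8 CPM. Their part in the Cd37 values was not tested.

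The uroplakins Upk1a and Upk1b belong to the plaques that seal the bladder surface. Upk1b measured 0.171, 0.287 and 0.117 CPM in the EV-proficient DMSO libraries, 0.25, 0.354 and 0.197 in the EV-deficient DMSO libraries, 0.85, 0.721 and 0.728 in the EV-proficient paclitaxel libraries and 0.671, 1.49 and 1.31 in the EV-deficient paclitaxel libraries. All drug libraries exceeded all DMSO libraries, at 18 to 80 counts against 4 to 17. On average over the labels its log2 change was 2.04 ± 0.32 (adjusted p 6.7e-06). Upk1a stayed between 0.485 and 1.54 CPM and was not called in any of the 6 comparisons.

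Between the EV labels under DMSO, 10 of the 25 tested members were called, 6 of them at a lower level in the EV-deficient label and 4 at a higher one. Of all tested genes 23% were called, 12.4% higher and 10.6% lower, and the median was 0.02 over the members and 0.04 over all genes. Tspan17 (-1.52 ± 0.20, adjusted p 6.6e-06) and Tspan8 (-1.15 ± 0.10, adjusted p 1.6e-08) were the lowest. Tspan2 (0.74 ± 0.22), Tspan9 (0.45 ± 0.07), Cd81 (0.40 ± 0.07) and Tspan3 (0.28 ± 0.07) were higher. Cd151 (-0.26 ± 0.07), Tspan15 (-0.55 ± 0.17), Tspan6 (-0.35 ± 0.12) and Tspan7 (-0.21 ± 0.07) were lower. Without EV-deficient DMSO replicate 2 the count was 6, with the calls of Tspan2, Tspan6, Tspan7 and Tspan15 lost, and the call of Cd151 was lost without EV-proficient DMSO replicate 2 (-0.18). Over all 20 alternatives those 4 calls were lost in 4, 8, 6 and 4 of them. Tspan12 was not called (-0.42 ± 0.16, adjusted p 0.066), but was in 10 of the 20. Cd9, Cd63 and Cd82 were not called, at 0.14 ± 0.07, -0.06 ± 0.06 and 0.02 ± 0.07.

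Under paclitaxel, 7 members were called between the EV labels, 4 higher and 3 lower in the EV-deficient label, where 37.8% of all tested genes were called, 16% higher and 21.8% lower. Tspan17 (0.83 ± 0.18), Tspan12 (0.60 ± 0.16), Tspan6 (0.58 ± 0.12) and Tspan8 (0.41 ± 0.09) were higher. Cd82 (-0.62 ± 0.07), Tspan9 (-0.43 ± 0.07) and Tspan3 (-0.32 ± 0.07) were lower. The members called under both treatments were Tspan3, Tspan6, Tspan8, Tspan9 and Tspan17, and all 5 had opposite signs under DMSO and paclitaxel. Of the vesicle markers, Cd9 (-0.11 ± 0.07), Cd63 (0.10 ± 0.06) and Cd81 (-0.07 ± 0.07) were not called. Cd63 was called in 1 of the alternatives, upper-quartile scaling, at 0.19. Tspan1 was not called (-0.29 ± 0.17), but was without EV-deficient paclitaxel replicate 2 (-0.60), the highest of its 12 libraries, and in the fit with no low-count filter. Tspan13 (0.23 ± 0.09, adjusted p 0.063) was called in 8 of 20 alternatives.

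**Figure D4:**
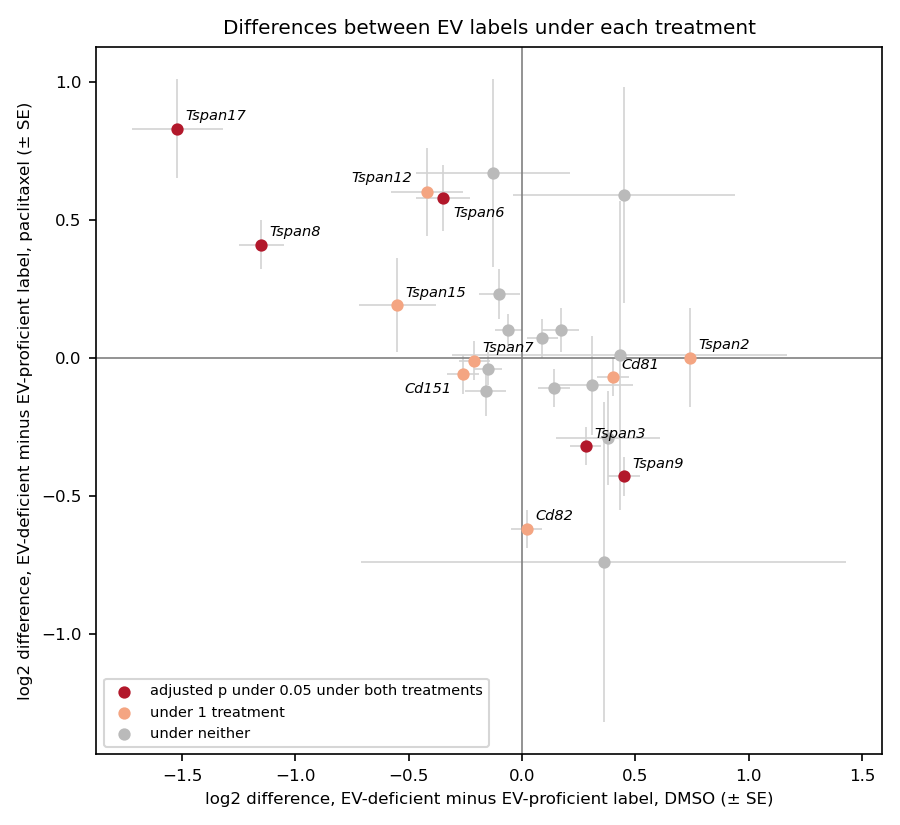
Log2 difference between the EV labels (EV-deficient minus EV-proficient) for the 25 tested tetraspanin genes, under DMSO on the horizontal axis and under paclitaxel on the vertical axis, with bars of 1 SE. The 5 genes called under both treatments lie in the upper left and lower right, where the signs are opposite.

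Tspan9 shows the crossing library by library. It measured 87.4, 95.7 and 92.3 CPM in the EV-proficient DMSO libraries and 121, 122 and 133 in the EV-deficient DMSO libraries, against 132, 145 and 133 in the EV-proficient paclitaxel libraries and 103, 108 and 93.2 in the EV-deficient paclitaxel libraries. As labelled, the drug effect was a rise of 0.57 ± 0.07 in one label and a fall by 0.31 ± 0.07 in the other, which upper-quartile scaling left at -0.12 and not called. The values of EV-deficient DMSO and EV-proficient paclitaxel lay side by side, from 121 to 145 CPM.

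The test of the difference between the drug effects called 11 of 25 members, 5 with a higher and 6 with a lower log2 effect in the EV-deficient label (40.7% of all tested genes, 16.9% higher and 23.8% lower). As labelled, Tspan17 differed by 2.35 ± 0.27 (adjusted p 4.1e-07) and Tspan8 by 1.56 ± 0.14 (adjusted p 7.9e-09). Tspan12 (1.02 ± 0.23), Tspan6 (0.93 ± 0.17) and Tspan15 (0.74 ± 0.24) were also positive. Tspan9 (-0.88 ± 0.10), Cd82 (-0.63 ± 0.10), Tspan3 (-0.60 ± 0.10) and Cd81 (-0.47 ± 0.09) were negative. Tspan2 (-0.74 ± 0.29) and Cd9 (-0.25 ± 0.09) passed narrowly, and lost their calls in 16 and 11 of 19 alternatives, over which their values ran from -0.85 to -0.62 and from -0.31 to -0.13. By arithmetic this difference is the change of the EV-label difference between treatments, so its sign, its size and the order of the members rest on the labels. Differences for Tspan4 (0.04 ± 0.13), Tspan5 (-0.02 ± 0.10), Tspan31 (-0.07 ± 0.12) and Upk1b (0.14 ± 0.66) were not called. Those for Tspan13 (0.33 ± 0.13), Tspan7 (0.20 ± 0.09) and Cd151 (0.20 ± 0.10) were not called either, but were in 9, 7 and 6 of 19 alternatives.

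Several members lie close to each other in the genome. Besides Cd151 and Tspan4, which both fell, Tspan18 and Cd82 lie 84.605 kb apart on chromosome 2, both on the minus strand and with no protein-coding gene between them. Cd82 rose on average, and Tspan18 had higher counts in the drug libraries. Cd81 lies 33.094 kb from Tspan32 on chromosome 7, and Tspan32 was too rare to test. Tspan9 lies 7.418 kb from Tspan11, which was also too rare. Exons on the opposite strand overlap 10 of the 29 members, namely Cd9, Cd37, Cd81, Cd151, Tspan2, Tspan4, Tspan8, Tspan12, Tspan31 and Tspan32. Levels of the genes opposite Tspan8 and Tspan12 are not given here. The libraries were stranded, but whether strand was used in counting is not stated, so reads of such pairs may not have been told apart. R74862, opposite Cd81, reached group means of 0.411 to 1.18 CPM, far below Cd81 itself.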

How the data were processed

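The authors deposited whole read counts per gene from stranded, polyadenylated-RNA libraries, per the labels' protocols. The submitters' processing notes name STAR 2.5.0a and the build GRCm38; the counting program, the annotation release and the use of strand are not given in the sources used here. The deposited counts were not normalized. The 12 columns were matched to samples by their descriptions, and 0 columns belonged to other samples. Rows without a symbol (3995) held at most 0.102% of a library's counts. The 2 rows added by the authors (gfp, 0 counts in every library, and dngfr) were left out of library sizes and tests.

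Tests used edgeR 4.0.16 in R 4.3.3: filterByExpr on the 4 groups (minimum count 10; 18108 of 35104 genes with any count), trimmed mean of M values scaling (factors 0.89 to 1.15), and a single quasi-likelihood fit of all 12 libraries with group means as terms (common dispersion 0.00956). P-values were adjusted by Benjamini-Hochberg within a comparison, and 0.05 was the threshold. Changes are on the log2 scale, and standard errors are the log2 change divided by the square root of F. A group with at most 3 counts in each library was at the floor. Gene positions and exon lengths came from GENCODE M21 (GRCm38), and promoter windows from RefSeq (GRCm38.p6). The alternatives tried were DESeq2 1.42.0, limma-voom (limma 3.58.1), upper-quartile and median-of-ratios factors, a minimum of 1 CPM in 3 libraries, no filter, a block for the replicate number, a fit of just the compared groups, leaving out each library, and the longest transcript as gene length. The scripts were first tested on simulated counts.

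Named in full were Cd9, Cd63, Cd81, Cd82 and Cd151, and each tested member with a mean of at least 1 CPM and a called log2 change of at least 1 in size in a simple comparison (6 more); of the 2 lists of partners and substrates, up to 6 called genes with the largest averaged change. Adam10, Fzd4, Cdk4, Tead2, Chid1 and R74862 were named for their tie to a member, and the libraries of Tspan9, and the integrin chains Itga6, Itgb1 and Itgb4, were chosen after their values were seen. The members and lists were chosen with earlier results of these data known. Replicates of a group differed by more than sampling noise in all 12 pairs (chi-square per degree of freedom 4.2 to 27.8).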

Additional observations from a re-analysis of the deposited data

Results flagged for a closer look

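The log2 effect of paclitaxel differed between the EV labels, by the interaction term of the edgeR model at an adjusted p under 0.05, for 11 of the 25 tested tetraspanin genes, given as the EV-deficient effect minus the EV-proficient effect. Of all tested genes 40.7% were called in the same test, so the members' share is near that background. The difference was 2.35 for Tspan17, 1.56 for Tspan8, 1.02 for Tspan12, 0.93 for Tspan6 and 0.74 for Tspan15. It was -0.88 for Tspan9, -0.74 for Tspan2, -0.63 for Cd82, -0.60 for Tspan3, -0.47 for Cd81 and -0.25 for Cd9. The calls of Tspan2 and Cd9 were lost in 16 and 11 of 19 alternatives. The dngfr row, a sequence the authors added to the table and which entered no comparison, had a signal in the libraries labelled EV-deficient paclitaxel, at a mean of 10.9 CPM, above the 2.14 CPM of the libraries labelled EV-deficient DMSO.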

How the results depend on the processing

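Drug effects within a label, calls between the EV labels and the interaction rest on labels whose differences reverse between treatments, and each EV status is 1 derivative line. The counts given here include Cd37 and Tspan18, which passed the low-count filter only through paclitaxel libraries. Depth limits these and Upk1b, and 4 members were too rare to test. The count of members called between the EV labels under DMSO was 10, fell to 6 without EV-deficient DMSO replicate 2, and ran from 6 to 12 over the fits that left out 1 library and from 7 to 13 over the others. The counts for paclitaxel were 16 (16 to 18 and 14 to 18) in the EV-proficient label, 21 (18 to 21 in both sets of fits) in the EV-deficient label and 22 (21 to 22 and 19 to 23) averaged. Between the EV labels under paclitaxel the count was 7 (7 to 9 in both), and for the interaction 11 (9 to 15 and 10 to 14). For single members, 1719 of 1800 values with 1 library left out kept their side of the threshold, 50 lost a call and 31 gained one; under the other settings 1054 of 1132 did, 32 lost and 46 gained. None of the called values changed sign, but 33 and 24 values called in neither fit did. Upper-quartile scaling moved the median of all genes by 0.18 (paclitaxel, EV-deficient label), 0.12 (averaged) and 0.12 (interaction). Under it 63.4% of called genes were higher with paclitaxel in the EV-deficient label, against 51.5%, 58.2% against 42.4% between the EV labels under paclitaxel, and 53.9% against 41.4% for the interaction. Between the EV labels under DMSO the share was 53.9%, 64.1% with no low-count filter, 48.2%, 47.1% and 48.8% with median-of-ratios scaling, upper-quartile scaling and DESeq2, and 45.9% to 47.8% without 1 paclitaxel library. The cause was not tested. With the longest transcript as length, 4 of the 5 leading genes were shared under paclitaxel. The deviations of same-numbered libraries correlated above 0.1 in 5 of 18 pairs (range -0.179 to 0.298). For 2 libraries the best match in every other group was the library of the same number. The replicate block gave 16, 21, 22, 11, 8 and 12 members called, in the order EV-proficient, EV-deficient, averaged, EV labels under DMSO, EV labels under paclitaxel and interaction.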
